A study of Homo sapiens with 2 samples.

Results

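The genes described here are 10 genes of prostaglandin synthesis and response, namely PLA2G4A, PTGS1, PTGS2, PTGES, PTGES2, PTGES3, SLCO2A1, HPGD, PTGER2 and PTGER4. They were chosen from pathway membership with the differences between these arrays, that of PTGS2 in particular, already known, so their values are given as a description and no test is made of them. Every probe set whose platform annotation names only 1 of these genes was taken, which gave 19 of 54675 probe sets and 10 of 19775 genes. No probe set named a member together with another gene. The arrays were made from FaDu cells, a human squamous carcinoma line derived from the pharynx, which were transduced with a lentivirus carrying either the GLUT4 sequence or the control vector and then selected with puromycin. Each of the 2 cell populations gave 1 Affymetrix Human Genome U133 Plus array of total RNA. The methods call the selected cells stable clones, without saying whether the RNA of an array came from 1 clone or from several together. The methods describe culture and selection for the cell lines in general and not for each array. GLUT4 is the insulin-responsive glucose transporter that SLC2A4 encodes. SLC2A4 read 28.3 with the vector and 32.6 with GLUT4 on its probe set, a log2 difference of 0.20 at a low signal. Since it was not determined whether its probes match the introduced sequence, the labels are not checked by it, and the arrays are named here by their labels.

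Prostaglandin E2 is a lipid mediator made from arachidonic acid. A phospholipase frees arachidonic acid from membranes, a cyclooxygenase turns it into prostaglandin H2, and a terminal synthase turns that into prostaglandin E2. The product acts on G protein-coupled receptors of neighbouring cells or of the cell that made it, is taken up by a transporter and is then oxidized to an inactive form. In squamous tumours the inducible cyclooxygenase is a well-known source of this mediator.

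PTGS2, the inducible cyclooxygenase, was the gene of the pathway with the largest difference, at 2.80-fold higher in the cells labelled GLUT4 on one probe set and 2.86-fold higher on the other. PTGER2, which encodes the EP2 receptor for prostaglandin E2, was 1.70-fold higher at a low signal. PTGES, the inducible terminal synthase, was 1.24-fold and 1.19-fold higher on its probe sets, within 1.5-fold. The other 7 genes, including the constitutive cyclooxygenase PTGS1, the inactivating enzyme HPGD and the EP4 receptor PTGER4, were within 1.5-fold on every probe set. Of these, PLA2G4A and HPGD read below the median of all probe sets, where a change may not be detectable, and PTGS1 read near it. Each group had a single array, so there are no replicates, and a difference compares these 2 arrays, with all that set the cell populations apart.

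The DNA just before the start sites of the cyclooxygenase genes and of PTGER2 is shown because PTGS2 and PTGER2 were the members past 1.5-fold, and PTGS1 is the paralogue of PTGS2 that was not. The sequences are the 250 bases before each annotated start, from RefSeq on GRCh38.p14, written from 5′ to 3′ on the strand of the gene. Capitals mark the letters TATAAA, those of the TATA box, and CGTCA, those of the core of the cAMP response element. Each was searched at any position and on both strands, so that they also appear as TTTATA and TGACG. The PTGS2 sequence is chr1:186680424-186680673 on the minus strand, the PTGER2 sequence chr14:52314062-52314311 on the plus strand, and those of the PTGS1 starts chr9:122370283-122370532 and chr9:122375052-122375301, both on the plus strand.
PTGS2: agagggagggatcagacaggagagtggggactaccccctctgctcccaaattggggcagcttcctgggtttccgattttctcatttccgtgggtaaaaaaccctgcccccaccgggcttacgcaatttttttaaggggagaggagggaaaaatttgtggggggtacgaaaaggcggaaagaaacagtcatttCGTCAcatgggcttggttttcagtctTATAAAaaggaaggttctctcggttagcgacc
PTGER2: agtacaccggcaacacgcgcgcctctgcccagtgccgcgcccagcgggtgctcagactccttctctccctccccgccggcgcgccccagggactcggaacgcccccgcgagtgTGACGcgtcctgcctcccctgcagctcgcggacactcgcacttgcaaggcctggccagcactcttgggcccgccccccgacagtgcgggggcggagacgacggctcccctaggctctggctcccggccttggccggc
PTGS1, first start: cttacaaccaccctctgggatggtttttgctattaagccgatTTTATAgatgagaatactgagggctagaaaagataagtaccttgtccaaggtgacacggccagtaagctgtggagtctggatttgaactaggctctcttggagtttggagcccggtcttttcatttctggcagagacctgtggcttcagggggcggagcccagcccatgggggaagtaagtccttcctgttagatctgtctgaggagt
PTGS1, second start: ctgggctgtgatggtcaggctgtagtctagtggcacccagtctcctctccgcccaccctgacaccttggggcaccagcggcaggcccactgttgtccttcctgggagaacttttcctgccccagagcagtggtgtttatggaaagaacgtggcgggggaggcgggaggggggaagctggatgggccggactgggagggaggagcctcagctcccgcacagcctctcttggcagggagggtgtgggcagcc

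The PTGS2 sequence held TATAAA beginning 32 bases before the start and CGTCA beginning 58 bases before it. The PTGER2 sequence held no TATAAA and held CGTCA on the opposite strand, beginning 137 bases before the start. Of the PTGS1 sequences, that of the first start held TATAAA on the opposite strand, beginning 208 bases before it, and neither held CGTCA. Among the other members, CGTCA began 21 bases before the start of PTGES3 and 77 bases before a start of HPGD. Both of those genes were within 1.5-fold, HPGD at a low signal where a change may not be detectable. Whether CGTCA goes with the differences was not tested. These motifs are common, since TATAAA was found in 10.7% and CGTCA in 21.2% of the 35116 sequences of the same length in the table. The full cAMP response element TGACGTCA (1.65% of all sequences) and the AP-1 motif TGANTCA (6.57%) were in none of the 13 sequences that the table holds for 9 of the 10 genes. The E-box CACGTG (6.34%) was in a single one, before a start of PTGES2. The loose NF-kappaB pattern (GGG and CC with any 5 bases between them) was before the starts of PTGS2, PTGER2 and PTGS1 alike, and in 54.4% of all sequences, and the exact NF-kappaB decamer (0.179%) was in none of the 13. A match is only a match of letters and says nothing about which factor was bound in these cells.

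PLA2G4A, the calcium-dependent cytosolic phospholipase A2, releases arachidonic acid from membrane lipids. Its probe set read 13.8 with the vector and 12.2 with GLUT4, a log2 difference of -0.17. The median over all probe sets was 39.6, so this gene was dim on both arrays. PLA2G4A and PTGS2 are neighbours in the RefSeq gene order, with the noncoding gene PACERR between them. The next protein-coding genes on the other side of PTGS2 are PDC and ODR4. PDC was dim too, at -0.05, so that a change of it or of PLA2G4A may not be detectable. ODR4 was the bright one among these neighbours and read 1088 with the vector and 1008 with GLUT4, a log2 difference of -0.11.

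The cyclooxygenases PTGS1 and PTGS2 catalyse the same reaction. PTGS1 is made in most tissues at a steady level, whereas PTGS2 is induced by cytokines, growth factors and stress. PTGS2 read 529 with the vector and 1483 with GLUT4 on the brighter of its probe sets, a log2 difference of 1.49. It read 127 and 362 on the dimmer one, a log2 difference of 1.51. Both probe sets were thus brighter on the GLUT4 array, and their differences lay 0.03 apart on the log2 scale. Both read the same RNA of each cell population, so the second probe set is no replicate of the comparison. From the largest difference downwards, the brighter PTGS2 probe set made it the gene at rank 19 of 19775, and its probe sets stood at ranks 48 and 51 of 54675.

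PTGS1 was lower on each of its 4 probe sets, all by less than 1.5-fold. The brightest read 58.1 with the vector and 53.5 with GLUT4, a log2 difference of -0.12. The others read 55.7 and 49.3 (-0.18), 45.5 and 41.4 (-0.14), and 44.2 and 40.1 (-0.14). All 8 values lie near the median intensity, and with 1 array a group a change of PTGS1 of this size can be neither shown nor excluded. The log2 difference of PTGS2 exceeded that of PTGS1 by 1.61.

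**Figure D1:**
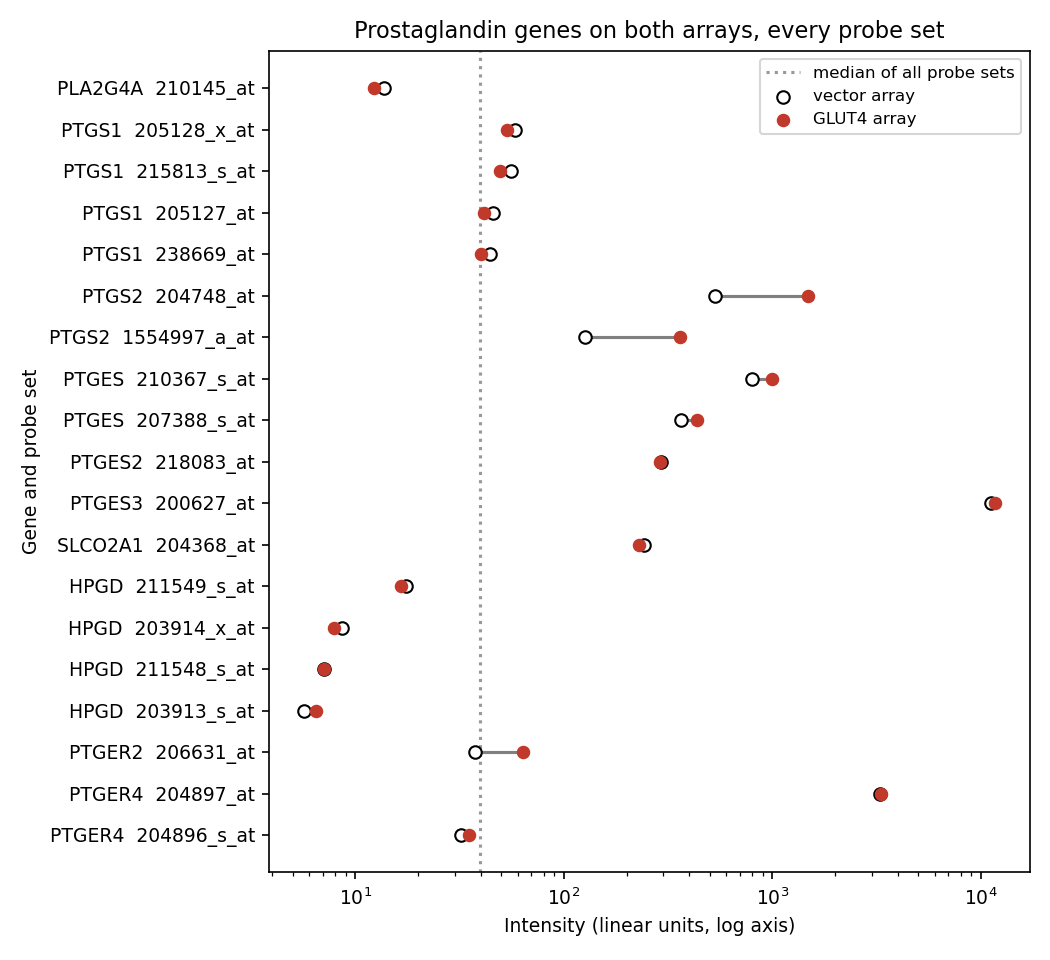
Each row is 1 probe set of a prostaglandin gene, with its intensity on the vector array (open points) and on the GLUT4 array (red points) along a log axis, and the dotted line marks the median of all probe sets. The PTGS2 points lie apart on both of its probe sets, at 529 and 1483 and at 127 and 362, and the PTGER2 points lie on either side of the dotted line.

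Of the terminal prostaglandin E synthases, PTGES (the membrane enzyme that is induced together with PTGS2) read 803 with the vector and 999 with GLUT4 on its brighter probe set, a log2 difference of 0.31. On its other probe set it read 364 and 433, a log2 difference of 0.25. Both probe sets were higher with GLUT4 and within 1.5-fold. The probe sets of PTGES share the name ending s_at, which marks probes that may match several transcripts. PTGES2, a further membrane-bound synthase, read 293 and 288 (-0.03). PTGES3, a cytosolic synthase that is also the HSP90 cochaperone p23, read 11155 and 11724 (0.07) and was bright on both arrays.

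Uptake and inactivation showed no difference past 1.5-fold. SLCO2A1, the prostaglandin transporter that carries the mediator into cells, read 242 with the vector and 229 with GLUT4, a log2 difference of -0.08. HPGD, the dehydrogenase that then oxidizes prostaglandins, was dim, and its 4 probe sets read between 5.68 and 17.4 on the vector array and between 6.48 and 16.6 on the GLUT4 array. Their log2 differences were -0.07, -0.13, 0.01 and 0.19 from the brightest to the dimmest, with no common direction. At such signals, below the median intensity, a change in the level of HPGD may not be detectable.

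The receptors PTGER2 and PTGER4 encode EP2 and EP4, which both raise cAMP in the cell. PTGER2 read 37.3 with the vector and 63.4 with GLUT4 on its only probe set, a log2 difference of 0.77. The vector value lies below the median intensity and the GLUT4 value above it. Of 2755 genes with a mean intensity within 0.5 log2 units of that of PTGER2, 2.03% were more than 1.5-fold higher. Adding 32 to all intensities, which shrinks the differences of dim probe sets, left PTGER2 1.38-fold higher, within 1.5-fold, and PTGS2 2.70-fold higher. PTGER4 read 3302 and 3332 on its bright probe set, a log2 difference of 0.01, and 31.97 and 34.9 on a dim one (0.13).

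At the brightest probe set of each gene, 2 of the 10 genes were past 1.5-fold on the higher side and none on the lower side. The share of all genes past 1.5-fold was 1.84% higher and 1.54% lower. Of the 19 probe sets, 3 were more than 1.5-fold higher against 2.04% of all probe sets, and none was more than 1.5-fold lower against 1.22%. Since PTGS2 was known to be higher when the genes were chosen, nothing is read from these counts. The median log2 difference was -0.01 over the 10 genes and -0.02 over all genes, and 5 of the 10 lay above 0 and 5 below, although PTGER4 at 0.01 came to -0.02 with quantile normalization and -0.01 with a loess trend removed. Without PTGS2 and PTGER2, the 16 probe sets of the other 8 genes lay between -0.18 and 0.31.

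**Figure D2:**
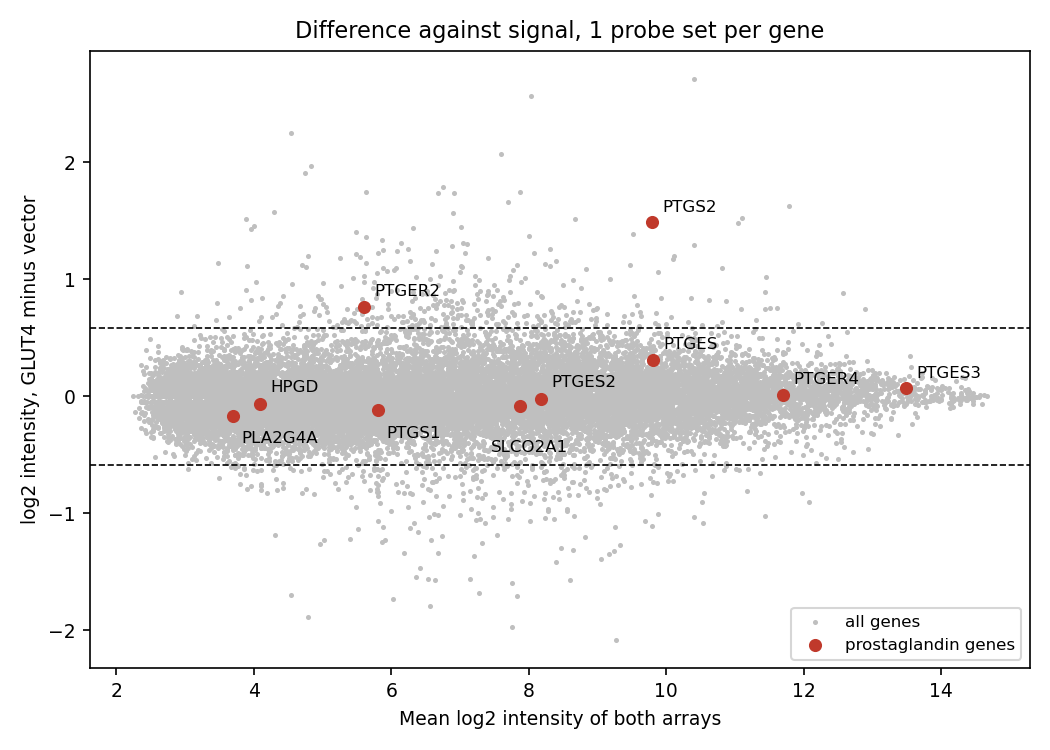
The vertical axis gives the log2 difference (GLUT4 minus vector) and the horizontal axis the mean log2 intensity, with all 19775 genes in grey, the 10 prostaglandin genes in red and dashed lines at 1.5-fold. PTGS2 at 1.49 and PTGER2 at 0.77 lie above the upper line, and the other 8 red points lie between the lines.

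Further genes, of the pathway and of the lipoxygenase branch, the cAMP response and PTGS2 mRNA stability, were taken in 7 lists of 97 genes. A probe set naming only the gene was there for 90 genes. Of these, 2 were more than 1.5-fold higher, 2 were more than 1.5-fold lower and 86 were within 1.5-fold, with a median log2 difference of 0.03. The shares past 1.5-fold were 2.22% in either direction, against 1.84% higher and 1.54% lower over all genes. These shares are near those of all genes, and the counts of single genes in the lists that follow are read as no more than the values of those genes.

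Of 20 other genes tied to the release of arachidonic acid, not all of which act to release it, none passed 1.5-fold. Their median was -0.05. ANXA1, a protein known to inhibit phospholipase A2, read 9519 with the vector and 9130 with GLUT4 (-0.06), and the phospholipase PNPLA8 read 1382 and 1211 (-0.19). Of 7 other prostanoid synthases, which make the prostaglandins D2 and F2alpha, prostacyclin or thromboxane, none passed 1.5-fold, with CBR1, a carbonyl reductase, at 0.02 and PRXL2B, a prostaglandin F synthase, at 0.34. Of 9 other receptors, none passed 1.5-fold, and their median was -0.05. PPARD and PPARG, nuclear receptors that bind fatty acids and some prostanoids, were at 0.09 and -0.19. Of 12 genes of prostanoid inactivation and transport, none passed 1.5-fold, with the reductase PTGR1 at 0.04 and the transporter SLCO4A1 at 0.41.

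Lipoxygenases use arachidonic acid too, and 5-lipoxygenase starts the synthesis of leukotrienes from it. Of 13 genes of this branch, 1 was more than 1.5-fold lower and none was higher past that threshold, and their median was 0.06. ALOX5AP, the protein that presents arachidonic acid to 5-lipoxygenase, read 3961 with the vector and 1947 with GLUT4 on its only probe set, 2.03-fold lower. This was the largest difference among the 90 genes of the lists at their brightest probe sets, at a signal far above the median, and opposite in direction to that of PTGS2. ALOX5, the 5-lipoxygenase itself, read 23.9 and 24.9 and was below the median intensity on both arrays. LTA4H, the hydrolase that makes leukotriene B4, read 5042 and 4977 (-0.02).

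EP2 and EP4 signal through cAMP, protein kinase A and the transcription factor CREB. Of 18 genes known to respond to cAMP, 1 was more than 1.5-fold higher, 1 was more than 1.5-fold lower, and the median was 0.06. RGS2, a regulator of G protein signalling, read 721 with the vector and 1184 with GLUT4, 1.64-fold higher. FOSB, an immediate early transcription factor, read 1994 and 1124, 1.77-fold lower. DUSP1, a phosphatase of MAP kinases, was at -0.07 and EGR1, an immediate early transcription factor, at -0.33. The list had no common direction, with 12 genes above 0 and 6 below.

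The PTGS2 mRNA is short-lived, and proteins that bind its AU-rich elements set how long it lasts. Of 11 genes for such RNA-binding proteins, 1 was more than 1.5-fold higher and none was lower past that threshold. RBM3, a cold-inducible RNA-binding protein, read 3964 with the vector and 6112 with GLUT4 on its brightest probe set, 1.54-fold higher. Averaged over both of its probe sets it was 1.29-fold higher, within 1.5-fold, and without the probe set whose name ends in s_at it was 1.07-fold higher. HNRNPD, which encodes AUF1, was at 0.27. ZFP36, which destabilizes AU-rich mRNAs, read 914 and 904, and ELAVL1, which encodes the stabilizing protein HuR, read 4011 and 4005.

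**Figure D3:**
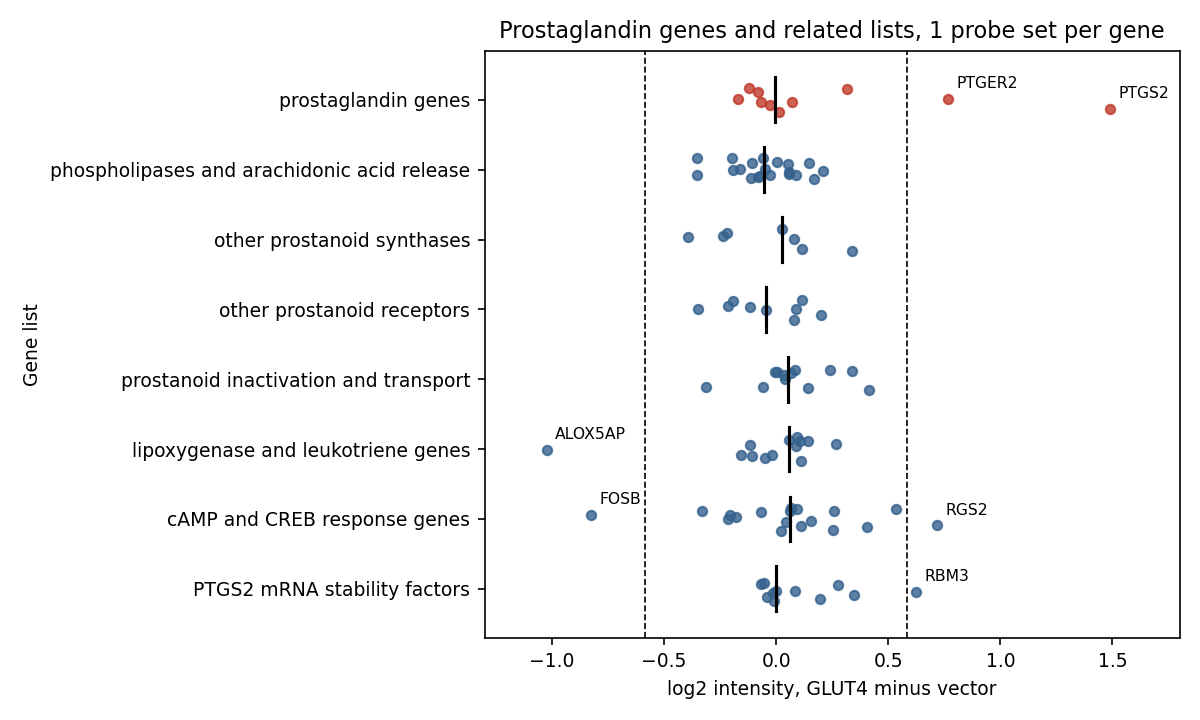
Each point is 1 gene at its brightest probe set, with its log2 difference (GLUT4 minus vector) on the horizontal axis, the gene lists as rows, black bars at the median of each list and dashed lines at 1.5-fold. PTGS2, PTGER2, RGS2 and RBM3 lie beyond the upper line and ALOX5AP and FOSB beyond the lower one, and no median of a list lies farther from 0 than 0.06.

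The further probe sets of the lists, other than the brightest of each gene, gave 4 past 1.5-fold higher and 4 lower of 149, where the share of all probe sets was 2.04% higher and 1.22% lower. These few are given for their values and are not a result about the lists. Those higher were of CITED2 at 1.13 (90.4 to 198), PTGR1 at 0.90 (114 to 212), PPARD at 0.82 (98.9 to 174) and PDE4D at 0.62 (14.1 to 21.7). Those lower were of ELAVL1 at -0.99 (110 to 55.1), ABHD6 at -0.66 (41.5 to 26.3), EGR1 at -0.64 (2674 to 1718) and PTGR3 at -0.63 (65.9 to 42.6). Each of these genes was within 1.5-fold on its brightest probe set. They were named after their values were seen.

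The deposited values of the arrays were alike as a whole, with median intensities of 39.7 and 39.1 and the same highest value. Processing before deposit can make values alike in this way, so this is no check on the RNA. Of 10 markers of squamous epithelial cells, 7 were measured and all 7 were above the median intensity, among them KRT5 at 11024 and 13093, with KRT14 more than 1.5-fold higher and EPCAM more than 1.5-fold lower. The markers of other cell types had no common direction. Of 8 fibroblast genes, 5 were above 0 with a median of 0.09, and LUM was 2.08-fold higher (38.5 to 79.9). Their summed intensity was 1146 with the vector and 979 with GLUT4, a gap smaller than that of FAP by itself (709 to 492). The sum of 8 endothelial genes was 346 and 250.1, with 5 genes below 0, and nearly all of the gap was that of PECAM1 (141 to 48.2). The sum of 8 leukocyte genes was 474 and 346, with 5 genes below 0, and most of the gap was that of CD14 (251 to 143), while PTPRC read 8.30 and 8.14. Their part in the differences was not tested. In RNA from a whole culture, fewer cells that express a gene and less RNA per cell cannot be told apart.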

How the data were processed

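RNA of FaDu cells carrying GLUT4 or the control vector was hybridized to 1 Affymetrix array each. The deposited values are intensities on a linear scale. According to the methods, the authors normalized expression as log2 values with GeneSpring, and MAS5 stands in the submitters' processing notes, with no version. Detection calls were not used here.

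The log2 of each intensity (at least 1) was taken, and differences are GLUT4 minus vector. Each gene stands at its brightest probe set, by mean log2 intensity, and 1.5-fold is the threshold of the methods. Of 54675 probe sets, 41097 name 1 gene, 1801 several and 11777 none here. With 1 array per group no test was made, and precision is limited by the number of arrays. The calculation was tested on simulated data.

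The members and the lists were chosen with earlier results of these data known. The genes named are the members, list genes past 1.5-fold and the brightest pair of each list, and a few named for context, such as ALOX5, ZFP36 and ELAVL1, which were chosen after their values were seen. Promoter sequences came from RefSeq, GRCh38.p14. Calculations used numpy 2.4.6, pandas 2.3.3 and statsmodels 0.14.6 in Python 3.11.15, and plots matplotlib 3.10.9.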

Additional observations from a re-analysis of the deposited data

How the results depend on the processing

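PTGS2 stayed between 1.43 and 1.51 on the log2 scale under equal array medians, quantile normalization, a loess trend removed (fraction 0.3), a filter at the median signal, an offset of 32, the mean over all probe sets and leaving out probe sets ending in x_at or s_at. PTGER2 lay between 0.46 and 0.80, where the filter is no check, since its vector value of 37.3 lies below the median and it passed through its GLUT4 value. With the offset of 32 the number of the 10 genes more than 1.5-fold higher was 1 in place of 2. Of the genes of all lists, 1 in place of 2 was more than 1.5-fold higher with probe sets averaged, and 1 without x_at and s_at probe sets, since RBM3 came to 0.36 and 0.10. The differences of PTGS2, PTGER2, RGS2, RBM3, ALOX5AP and FOSB changed sign under none of these settings, but several settings could not change it. An offset cannot change a sign, and the filter returned the main value for each of these genes. The sorted log2 values of the arrays lay at most 0.155 apart. Equal array medians and quantile normalization therefore could not change these signs either. Removing the loess trend moved them little, with PTGS2 at 1.47 and RBM3 at 0.60. PTGER2, RGS2, ALOX5AP and FOSB have 1 probe set each, not ending in x_at or s_at. Averaging and leaving out such probe sets therefore returned their main values, and leaving them out did so for PTGS2. The other genes named past 1.5-fold were not run one by one. The filter left out PLA2G4A and HPGD, and leaving out x_at and s_at probe sets left out PTGES and HPGD. Over all genes, the offset of 32 gave 205 higher and 168 lower in place of 363 and 304, and averaging gave 186 lower. No paired analysis was possible because each group had 1 array, and no array could be left out. At signals below the median intensity, as for HPGD and PLA2G4A, small differences may not be detectable.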
